A study of Caenorhabditis elegans with 52 samples.

Results

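The data described here follow histone H3 in isolated germ nuclei (IGN) of Caenorhabditis elegans after 3 h of ISW-1 depletion, with beads washed at low salt. The libraries were chosen by their labels: the table that sets auxin-treated nuclei of the ISW-1 degron strain against ethanol-treated nuclei of the same strain at low salt, with 8 of the 52 samples of the series behind it. These were 2 H3 native ChIP-seq libraries and 2 inputs for auxin, and 2 H3 libraries and 2 inputs for ethanol. Larvae of strain YL701 were grown from the L1 stage for 45 h and then moved, as young adults, for 3 h to plates with 1 mM auxin or to ethanol plates. The last wash of the immunoprecipitate held 150 mM NaCl. All of these animals, ethanol included, carried the degron-tagged ISW-1 (ISW-1::eGFP::AID) and a TIR1 transgene driven by the mex-5 promoter, which is active in the germ line. The ethanol group therefore has the tag and TIR1, and there is no group without them. ISW-1 protein was not measured in these files. The replicates of each group were merged before nucleosomes were called, so each group was 1 library here. No p-value is possible with 1 library a group, and all spreads given are spreads over nucleosomes or genes.

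ISW-1 is the nematode ISWI protein, the ATPase of a family of chromatin remodellers that slide nucleosomes and are known for spacing them evenly along DNA. In yeast and flies, ISWI complexes build regular arrays with a fixed distance between neighbouring nucleosomes, starting at the nucleosome just inside a gene (the +1 nucleosome). In the worm germ line the X chromosome is largely silent, while housekeeping and germ granule genes are strongly transcribed. In the nucleosome table, occupancy is the H3 signal at the summit of a nucleosome with the input subtracted, in the scaled coverage units of the nucleosome caller. A nucleosome's dyad is the position of that summit. Change means log2 of auxin plus 1 over ethanol plus 1. Because the caller was set to the same read total for all libraries, a loss or gain shared by all nucleosomes could not be seen.

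On the 5 autosomes and X, the table held 541779 nucleosomes. Their median occupancy was 110 in auxin and 129 in ethanol, and the middle 50% lay between 4.83 and 250 in auxin and between 30.5 and 254 in ethanol. The upper parts of the distributions were thus alike and the lower part was emptier in auxin. Occupancy was listed at 0 for 24.2% of nucleosomes in auxin and 17.96% in ethanol. The median change was -0.09, with quartiles of -2.39 and 1.32, and 31.0% of nucleosomes were at least 2-fold lower against 24.9% at least 2-fold higher (occupancy of 50 or more in the higher library). Such shares arose in the other comparisons of the series too. At high salt (a last wash with 500 mM NaCl) the same strain and treatment gave 27.8% lower and 31.1% higher, and at low salt prde-1 mutants against wild type gave 26.7% lower and 25.9% higher. Single nucleosomes were poorly repeated between the salt steps: of 81735 nucleosomes that were 2-fold lower at low salt and had a listed nucleosome within 30 bp at high salt, 30.2% were also 2-fold lower there, against 27.8% of all 264653 matched nucleosomes. What follows is therefore given for genes, gene groups, sequence classes and chromosome regions.

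Of the lists of protein-coding genes described here, ribosomal protein genes had the lowest median change. Of the 78 rpl and rps genes, 71 had at least 3 nucleosomes and a mean occupancy of at least 50. All 71 were lower in auxin, and 55 were at least 2-fold lower, where 61.1% of all 18084 protein-coding genes that passed the same limits were lower and 11.5% were at least 2-fold lower. The median over the 71 genes was 154 in auxin and 451.4 in ethanol, and the median change was -1.46 (quartiles -2.03 and -1.07), beside -0.15 (quartiles -0.56 and 0.22) for all protein-coding genes. Ethanol levels of the group stood far above those of other genes, whose median was 144, while the auxin level was close to the all-gene auxin median of 133. At high salt, in separate libraries, 71 of 73 genes were lower and 68 were at least 2-fold lower, against 7.75% of all genes, with medians of 162 in auxin and 605 in ethanol. Whether the low salt and high salt nuclei came from the same cultures is not stated in the labels.

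Among single members, rpl-27 (chromosome I, 1834883 to 1835438, 4 nucleosomes) had a mean occupancy of 42.7 in auxin and 533 in ethanol, a change of -3.61. The small-subunit gene rps-2 (chromosome IV, 7925298 to 7926391) had 27.2 in auxin and 313 in ethanol, a change of -3.48. For rpl-3 (chromosome III, 10 nucleosomes) the values were 168 in auxin and 564 in ethanol. The smallest change belonged to rpl-34, with 357 in auxin and 388 in ethanol, and at high salt rpl-34 had 356 in auxin and 322 in ethanol. The X-linked copies stood apart in level: rpl-25.1 had 62.4 in auxin and 116 in ethanol, and rpl-11.2 had 107 in auxin and 123 in ethanol. Their ethanol values lay near the median of all genes, while 69 of the 71 genes were autosomal. Ribosomal protein genes are rich in GC, with a median of 46.0% over their nucleosomes against 36.7% for all genes, and GC content moved with the change genome-wide (below). Set against the auxin value expected from nucleosomes of the same GC content, their median change was -1.02, against -0.02 for all genes. In prde-1 mutants, which lack a subunit of the piRNA transcription complex USTC and were harvested later than wild type, 60 of 69 of these genes were lower than in wild type at low salt, with a median change of -0.56, where 49.9% of all genes were lower.

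**Figure D1:**
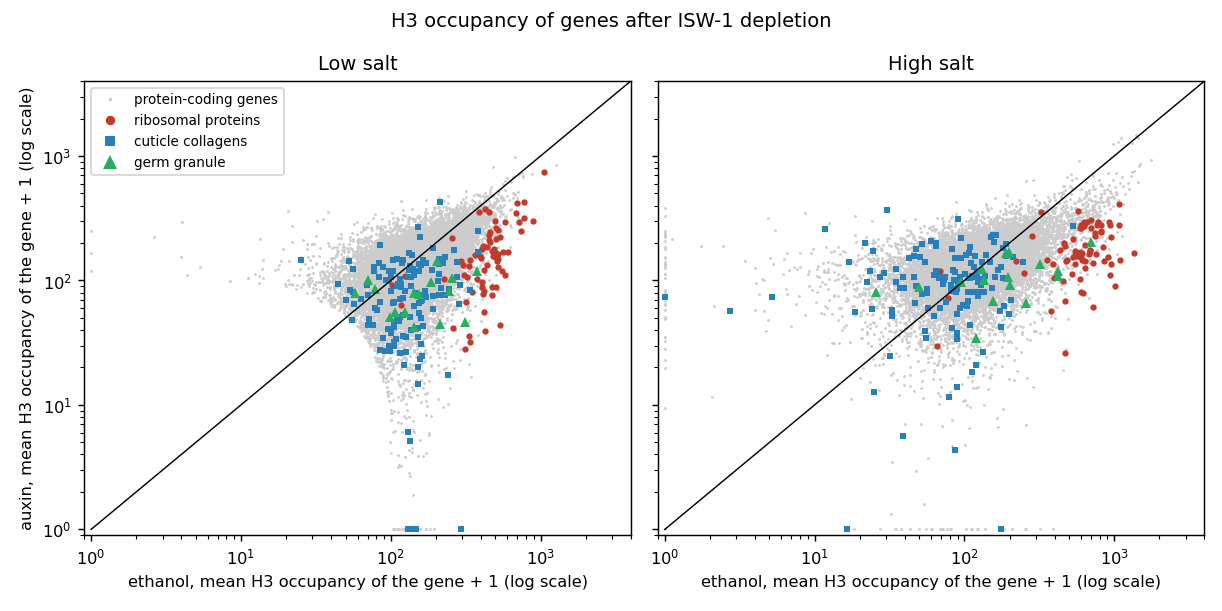
Mean H3 occupancy of each protein-coding gene plus 1 in auxin (vertical) against ethanol (horizontal), both on log scales, with low salt on the left and high salt on the right. Grey points are all genes, red circles ribosomal protein genes, blue squares cuticle collagen genes and green triangles germ granule genes, each with a value at low salt. The line marks equal occupancy, and all 71 ribosomal protein genes lie below it at low salt.

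The loss lay inside the genes more than before them. In the first 750 bp from the annotated 5′ end, nucleosomes of the 78 ribosomal protein genes averaged 177 in auxin and 439 in ethanol (350 nucleosomes), and 62.3% were at least 2-fold lower, where 31.0% of all nucleosomes were. In the 200 bp before the 5′ end the means were 232 in auxin and 339 in ethanol (81 nucleosomes), and 39.5% were at least 2-fold lower. In log2 terms the ratio of means was -1.31 inside and -0.55 before the genes. On autosomes as a whole the same windows gave -0.21 inside (148 in auxin, 172 in ethanol) and -0.11 before the genes (183 in auxin, 197 in ethanol). Genes on X went the other way, with 0.05 inside (144 in auxin, 139 in ethanol) and 0.19 before the genes (159 in auxin, 140 in ethanol). GC content differed between the windows as well, with a median of 45.3% inside and 31.3% before the ribosomal protein genes, and its part in the contrast between the windows was not tested.

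**Figure D2:**
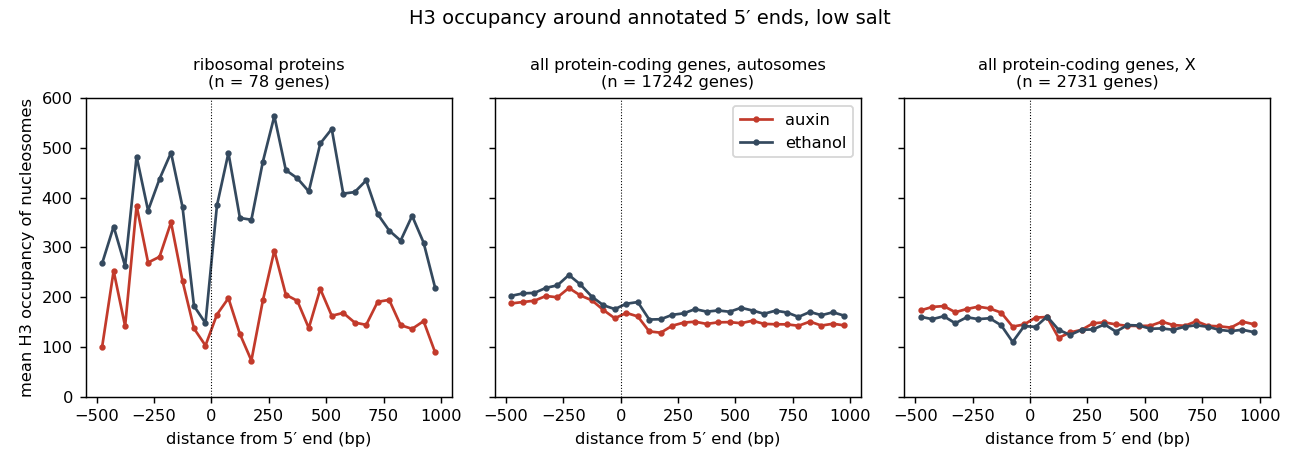
Mean H3 occupancy of nucleosomes in 50 bp steps of distance from the annotated 5′ end (bp) at low salt, for auxin (red) and ethanol (dark blue), in 78 ribosomal protein genes, 17242 autosomal genes and 2731 genes on X. In ribosomal protein genes the auxin line runs far below the ethanol line downstream of the 5′ end (177 against 439 on average over the first 750 bp), and the lines lie close together in the other panels.

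Germ granule genes were lower too, with exceptions. Of 16 germ granule genes, which encode the proteins and small RNA factors of the perinuclear P granules and their neighbours, 13 were lower in auxin and 7 at least 2-fold lower, against 61.1% and 11.5% of all genes. The list's median change was -0.97, with medians of 78.3 in auxin and 148 in ethanol. Its median GC content was 43.4%, and set against the GC expectation its median change was -0.65. The Vasa-like helicase glh-1 had 45.5 in auxin and 310 in ethanol, and at high salt 108 in auxin and 423 in ethanol. The Argonaute wago-1 had 43.4 in auxin and 213 in ethanol (64.4 and 257 at high salt). Another Argonaute, csr-1, had 118.9 in auxin and 374 in ethanol (204 and 701 at high salt), and the P granule protein gene pgl-1 had 81.1 in auxin and 245 in ethanol (118 and 418 at high salt). The 3 genes above ethanol were glh-3, meg-1 and meg-3, with changes of 0.51, 0.44 and 0.12, and meg-1 and meg-3 lie on X. At high salt glh-3 was lower, with 100.2 in auxin and 135 in ethanol. Of the 4 X-linked members, meg-4 fell most (41.3 in auxin, 143 in ethanol).

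Of 14 genes for the meiotic chromosome axis and the synaptonemal complex, the protein zipper between paired chromosomes, 12 were lower and 3 at least 2-fold lower, with a median change of -0.53 (61.1% and 11.5% of all genes). Set against the GC expectation, the median change at low salt was -0.40. At high salt 9 of 14 were lower, against 43.5% of all genes. The HORMA domain gene htp-1 had 55.2 in auxin and 297 in ethanol, and htp-3 had 69.9 in auxin and 167 in ethanol. The other member past 2-fold, htp-2, had 45.7 in auxin and 112 in ethanol at low salt but 121 in auxin and 86.7 in ethanol at high salt. The central region genes changed less: syp-2 had 512 in auxin and 703 in ethanol, and syp-4 had 122 in auxin and 86.5 in ethanol. Of 12 genes for piRNA biogenesis, 10 were lower and 4 at least 2-fold lower. These 4 were prg-1, the PIWI Argonaute (109 in auxin, 384 in ethanol), tofu-1 (68.0 in auxin, 220 in ethanol), tost-1 (77.7 in auxin, 185.1 in ethanol) and erh-2 (26.9 in auxin, 75.9 in ethanol). At high salt prg-1, tofu-1 and erh-2 were lower as well, and tost-1 was higher, with 229 in auxin and 148 in ethanol. All 3 PRC2 genes were lower, none by 2-fold.

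The gene for the depleted protein was itself among the lower ones. Over the 34 nucleosomes of isw-1 (chromosome III) the mean was 92.4 in auxin and 180 in ethanol, a change of -0.95, and at high salt 103 in auxin and 188 in ethanol, a change of -0.85. Of the 8 genes for proteins of ISWI and related complexes, 5 were lower, a share close to the 61.1% of all genes, and lin-53, a histone chaperone subunit, was the only one past 2-fold (35.0 in auxin, 115 in ethanol, but 154 and 186 at high salt). The accessory subunit gene nurf-1 had 202 in auxin and 240 in ethanol over 102 nucleosomes, and let-418, a Mi-2 ATPase gene, had 72.2 in auxin and 142 in ethanol. The inorganic pyrophosphatase gene pyp-1 had 204 in auxin and 277 in ethanol. Higher values in auxin were seen for rba-1 (267 against 215 in ethanol, but 128.5 against 319 at high salt), athp-2 (316 against 288) and chd-3, on X (55.4 against 53.4). For the USTC genes the values were 263 in auxin and 294 in ethanol for prde-1, 142 and 140 for snpc-4, 117 and 167 for tofu-4, and 137 and 175 for tofu-5. Of 5 other remodeller ATPase genes found in the annotation (swsn-4, chd-1, chd-7, ssl-1 and btf-1), all were lower, with changes between -0.33 and -0.06.

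The nuclei were labelled as isolated germ nuclei. H3 occupancy is no measure of expression and could not check this, but the marker lists show how the genes of other tissues moved. Of 12 germ line markers, 10 were lower in auxin and 6 at least 2-fold lower, with a median change of -1.11. At high salt all 12 were lower (median -1.35), against 43.5% of all genes (median 0.11). The markers pgl-1, glh-1, csr-1, htp-3, him-3, syp-1 and prg-1 are also members of the lists above, so this is not a separate observation. Of 14 soma markers, 13 had a value. Of these, 11 were lower and 3 at least 2-fold lower at low salt (61.1% and 11.5% of all genes), with a median of -0.38. At high salt 4 of 12 were lower and their median was 0.09, near the median of 0.11 for all genes there. Against the value expected from their GC content the soma markers had a median of -0.04 and the germ line markers -0.82. The muscle myosin genes unc-54 (65.2 in auxin, 81.1 in ethanol) and myo-3 (40.4 in auxin, 74.5 in ethanol) and the neuronal gene rab-3 (177 in auxin, 154 in ethanol) are examples. The cuticle collagen col-19 was listed at 0 in auxin and at 147 in ethanol over 5 nucleosomes, and at high salt at 55.8 in auxin and 1.74 in ethanol.

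Other gene families were mostly closer to the median of all genes. Of 132 cuticle collagen genes, 101 were lower and 59 at least 2-fold lower at low salt, where 61.1% and 11.5% of all genes were. Their medians were 75.7 in auxin and 130 in ethanol. At high salt 54 of 125 were lower and the median change was 0.16, close to all genes there (43.5% lower, median 0.11). Collagen genes are the richest in GC among these families (48.4%), and against the GC expectation their median was -0.39. The 4 vitellogenin genes with a value, all on X and all yolk protein genes of the intestine, were lower at low salt (median -1.03), and 2 of 4 were lower at high salt. Among 18 heat shock protein genes, 12 were lower, a share near the 61.1% of all genes, and 5 at least 2-fold lower, against 11.5%. Chaperone genes with high ethanol levels were among them, hsp-90 with 183 in auxin and 628 in ethanol, hsp-6 with 142 and 413, hsp-1 with 303 and 735 and hsp-110 with 268 and 635. The small heat shock gene hsp-12.1 had 331 in auxin and 194 in ethanol, and hsp-12.2 had 147 in auxin and 90.5 in ethanol but 94.8 and 192 at high salt. Of 12 histone genes with a value, 9 were lower, where 61.1% of all genes were. Among the 9 was the replacement histone gene his-72 (146 in auxin, 266 in ethanol). Near the median of all genes stood 217 C-type lectin genes (median change -0.18), 251 F-box genes (-0.08), 67 MATH and BATH genes (-0.23), 212 srh chemoreceptor genes (-0.02) and 74 cytochrome P450 genes (-0.01), with 41, 29, 11, 24 and 10 genes at least 2-fold lower, beside 11.5% of all genes. Among genes without protein products, counting nucleosomes within 75 bp of the gene, the median change was -0.68 for 313 snoRNA genes, -0.49 for 527 tRNA genes, -0.41 for 105 snRNA genes, -0.37 for 210 miRNA genes and -0.15 for 1876 pseudogenes. Adjusted for GC content, these medians were -0.39, -0.16, -0.08, -0.13 and -0.001, in the same order. The snoRNA genes of X differed from the rest, with an unadjusted median change of 0.01 over 30 genes on X against -0.73 over 283 on autosomes. Many snoRNA genes lie inside other genes, so their nucleosomes are shared with the host.

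Among 9561 genes with at least 10 nucleosomes and a mean of at least 100, 425 were at least 2-fold lower and 130 at least 2-fold higher. Under the looser limits of 3 nucleosomes and a mean of 50, 11.5% and 4.16% of all 18084 genes were. Of those with at least 10 nucleosomes, 6.02% and 1.65% were. Genes with the largest changes and the same direction at high salt are named here. The largest fall was that of C53H9.2 (chromosome I, 1832897 to 1834763), with a mean of 18.98 in auxin and 263 in ethanol over 11 nucleosomes, 10 of them lower. Its values at high salt were 67.4 in auxin and 376 in ethanol. This gene lies directly before rpl-27. The Argonaute gene ppw-2 (chromosome I, 5158511 to 5162232) followed with 32.5 in auxin and 278 in ethanol, and 19 of its 21 nucleosomes were lower. After glh-1 came B0001.3 (31.7 in auxin, 192 in ethanol), the Tudor nuclease gene tsn-1 (35.3 in auxin, 180 in ethanol), wago-1, F07F6.4 (57.8 in auxin, 271 in ethanol) and F39G3.3 (59.9 in auxin, 276 in ethanol, with all 13 nucleosomes lower). Among them ppw-2, glh-1 and wago-1 act in germline small RNA pathways. In prde-1 mutants against wild type the 8 genes had changes between -0.76 and -0.07.

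The 8 largest rises had changes at high salt between 0.04 and 1.57, and the 8 largest falls between -2.47 and -0.69. The rises were F53B1.3 (226 in auxin, 30.8 in ethanol, 178 against 162 at high salt), the nuclear hormone receptor gene nhr-213 (176 in auxin, 26.5 in ethanol, 148 against 144 at high salt) and T09D3.9 (198 in auxin, 36.9 in ethanol, 182 against 150 at high salt). The bestrophin channel gene best-14 had 183 in auxin and 47.9 in ethanol, and 143 against 47.6 at high salt. The calmodulin-related gene cal-1 had 176 in auxin and 47.5 in ethanol, and 198.5 against 86.1 at high salt. The astacin protease gene nas-5 (182 in auxin, 52.2 in ethanol), the oxidase maturation factor gene doxa-1 (171 in auxin, 50.6 in ethanol) and the chemoreceptor gene srw-71 (212 in auxin, 64.3 in ethanol) completed the list. In these 8 genes the ethanol level was below the median of all genes, which the choice of genes by their rise favours. In the ethanol library at high salt their levels ran from 47.6 to 162.

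Directions held at high salt for most of the changed genes. Of the 392 genes at least 2-fold lower that had at least 10 nucleosomes at both salt steps, 305 were lower at high salt (77.8%, against 43.9% of all 9169 such genes) and 95 at least 2-fold lower, and their median change there was -0.51. Of the 118 at least 2-fold higher, 88 were higher at high salt (74.6%, against 56.1%), with a median of 0.34. Across the 9169 genes, which are not independent replicates, the changes at the salt steps had a Spearman correlation of 0.33, and it was 0.33 after setting each against its GC expectation. The 392 lower genes had a median of 82.3 in auxin and 197 in ethanol and the 118 higher genes 187 in auxin and 81.4 in ethanol. The GC content of the lower genes was 40.4% and that of the higher genes 34.5%, beside 35.96% for all 9169. Few of the lower genes were on X, 17 (4.34%), where X held 15.8% of all such genes, and 26 (22.0%) of the higher ones.

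GC content of the DNA moved with the change at single nucleosomes. In deciles of the GC content of the 150 bp around the dyad, the median change was 0.25 in the lowest decile (up to 26.0% GC) and -0.71 in the highest (46.0% and above). Mean occupancy was 258 in auxin and 217 in ethanol in the lowest decile, and 120 in auxin and 167 in ethanol in the highest. The share at 0 moved with it in auxin alone, 15.997% of nucleosomes in the lowest decile and 34.2% in the highest, against 20.1% and 17.1% in ethanol. Of the GC-rich decile 39.6% were at least 2-fold lower and 18.4% higher, and of the GC-poor decile 21.4% lower and 32.6% higher. The difference between the highest and lowest quintiles was -0.75 at low salt, and -0.32 with at least 50 in both libraries. At high salt the trend was weak and depended on the measure, with medians of 0 in the highest quintile and 0.10 in the lowest and log2 ratios of means of 0.05 and -0.04. The names of the deposited tables mark the prde-1 and wild type libraries as GC corrected and carry no such mark for the auxin and ethanol libraries of either salt step, so the prde-1 values may have been processed differently in this respect. With the quintiles of the GC content of flanking DNA (150 to 300 bp from the dyad) added, nucleosomes rich in GC with rich flanks had a median of -0.97 and those rich in GC with poor flanks -0.30. Poor cores gave 0.15 with poor flanks and 0.12 with rich ones. The 2 libraries are single merged ones, so a difference between the libraries themselves and an effect of ISW-1 cannot be told apart here.

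Sequences at the dyads show both kinds of DNA. The nucleosomes were picked after their values were seen: the 3 largest falls in the highest decile of GC and the 3 largest rises in the lowest, with at least 300 in the higher library, at least 1 in the lower one, dyads within 20 bp of each other and the same direction at high salt. Each line gives 30 bases of the plus strand around the table's nucleosome centre (ce11), with G and C in capitals.
chrII:14018433-14018462, intron of F01D5.10, fall: CCaGaCGtGattaaaGaaaGaaGGCtCGCG
chrIII:6340887-6340916, coding exon of rpn-13, fall: CaCGaatatCaCCttGattCGCGGaGCCaa
chrIV:7486499-7486528, within 500 bp of a 5′ end, fall: GCCGCtCCGaCCatttCCtCataCttGatt
chrII:12112612-12112641, intergenic, rise: aGCaataCaaaaaaGtCGCGtaatttttta
chrIII:28087-28116, intergenic, rise: aaaaatttttttttttttGattttttaatC
chrIV:5135785-5135814, intron of soc-2, rise: tGaaaaataatttaaCtGtttCaatatatt
The falls held 15 G or C bases each, and the rises 8, 2 and 4, of 30, a difference that the choice by decile of GC favours. The nucleosome in rpn-13, a proteasome receptor gene, had an occupancy of 1.52 in auxin and 413 in ethanol, and 0 in auxin and 122 in ethanol at high salt. The one in soc-2, a scaffold gene of Ras signalling, had 393 in auxin and 3.58 in ethanol, and 439 in auxin and 160 in ethanol at high salt. In F01D5.10 the values were 2.97 in auxin and 666 in ethanol, and 245 in auxin and 288 in ethanol at high salt.

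**Figure D3:**
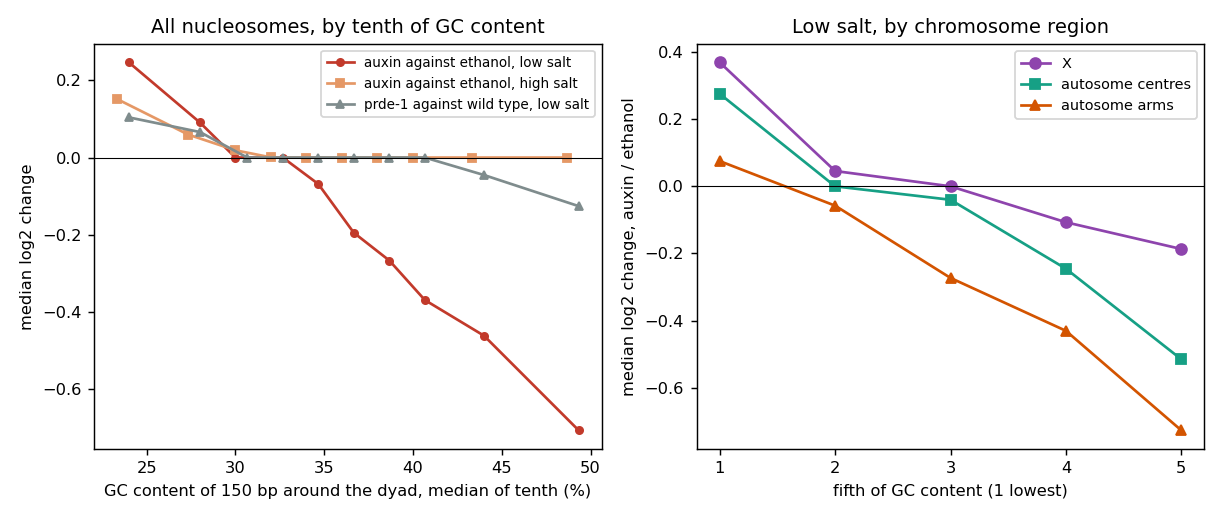
Left, median log2 change of nucleosomes by decile of GC content (median GC of the decile in percent on the horizontal axis) for auxin against ethanol at low salt (red) and high salt (orange) and for prde-1 over wild type with the low salt wash (grey). Right, median log2 change at low salt by quintile of GC content for X, autosome centres and autosome arms. The low salt line is at 0.25 in the lowest and -0.71 in the highest decile, and X lies above the arms in each quintile.

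By annotation of the dyad, coding exons stood apart from the other classes. Nucleosomes in coding exons, the most GC-rich class (40.7%), averaged 116 in auxin and 146 in ethanol, with a median change of -0.41 and 35.9% at least 2-fold lower. In introns (33.3% GC) the means were 184 in auxin and 191 in ethanol and the median change was -0.07. In 3′ UTRs, in the 500 bp upstream of genes and in intergenic DNA the median was 0, and in 5′ UTRs it was -0.06. Within quintiles of GC content, exons and introns had no fixed order. From the lowest to the highest quintile the medians were 0.24, 0, -0.11, -0.38 and -0.84 in coding exons, and 0.15, 0, -0.25, -0.42 and -0.49 in introns, so exons were lower in the richest quintile alone. At high salt the median in coding exons was 0, with means of 113 in auxin and 118 in ethanol.

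By chromosome, X gained relative to the autosomes. Mean occupancy on X was 156 in auxin and 144 in ethanol, against 171 in auxin and 185.04 in ethanol on the autosomes, and the log2 ratios of means were 0.11 and -0.11. In medians the change was 0 on X and -0.14 on the autosomes, a difference of 0.14, and 0.19 after centring on nucleosomes of the same GC content. X lay higher within each quintile of GC content, by 0.05 to 0.47. Along the chromosome, 18 of 20 equal parts of X had a ratio above 0 (range -0.03 to 0.20), and all 20 parts of chromosomes I and III had one below 0. At high salt the ratio was 0.37 on X and -0.07 on the autosomes, and all 20 parts of X were above 0. In prde-1 against wild type, X minus autosomes was 0 to 0.19 by quintile of GC content. Of 2488 genes on X with a value 1189 were lower (median 0.03), and of 15596 on autosomes 9855 (median -0.18).

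Within autosomes the arms, the outer 30% at each end, lost more than the centres. Means were 178 in auxin and 200 in ethanol on arms, against 160 in auxin and 163 in ethanol in centres, and the difference between the median changes was -0.22 (-0.16 after centring on GC, and -0.10 with at least 50 in both libraries). It went this way on each autosome, with ratios of means of -0.20 on arms and -0.06 in the centre of I, and -0.11 on arms and 0.07 in the centre of V. Within each quintile of GC content arms were lower than centres, by 0.06 to 0.23. At high salt the medians of arms and centres were both 0.

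**Figure D4:**
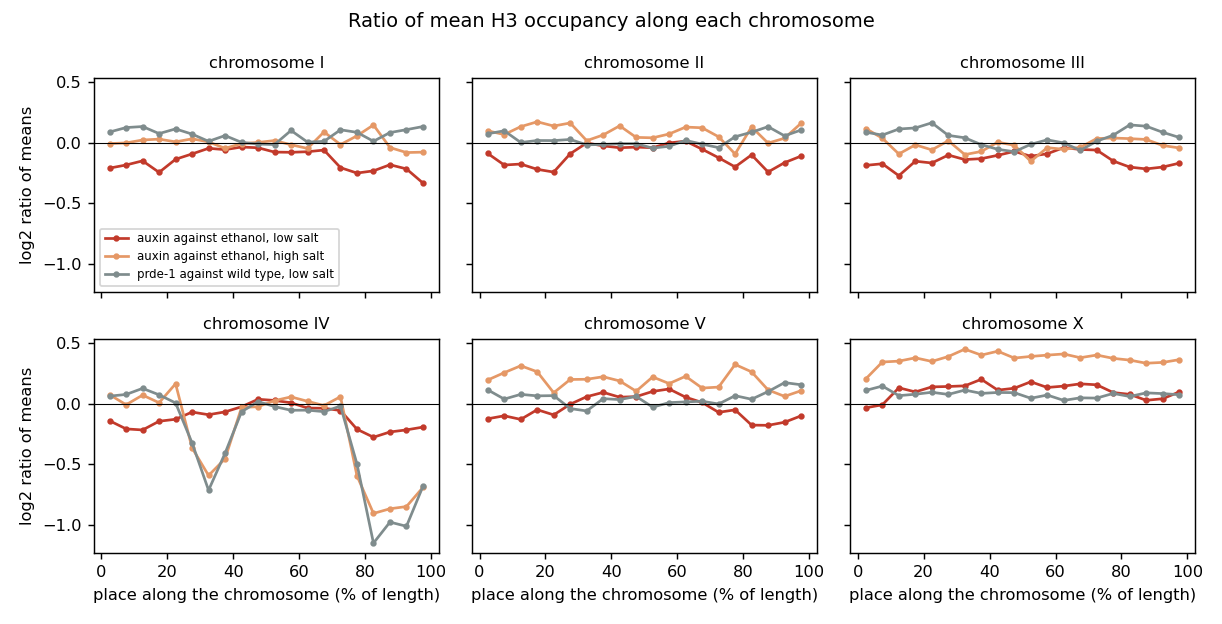
Log2 ratio of mean H3 occupancy in 20 equal parts of each chromosome (horizontal axis in percent of its length), for auxin against ethanol at low salt (red) and high salt (orange) and for prde-1 over wild type with the low salt wash (grey). At low salt the lowest part of chromosome IV is at -0.28, while the high salt and prde-1 lines reach -0.90 and -1.15 there, and X lies above 0 in 18 of 20 parts.

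The piRNA domains of chromosome IV, where piRNA genes are packed in long clusters transcribed with USTC, showed a modest change at low salt. Domains were taken as runs of 100 kb windows with at least 20 annotated piRNA genes. In the left domain (4800001 to 7000000) nucleosomes averaged 206 in auxin and 215 in ethanol, and in the right domain (13500001 to 17300000) 265 in auxin and 313 in ethanol. The log2 ratios were -0.07 and -0.24, beside -0.08 in the rest of IV. Median GC content was lower in the domains (32.7% and 30.7%) than in the rest of IV (35.3%). Set against the GC expectation, the ratios were -0.06 and -0.28, beside 0.005 in the rest of IV. At high salt the ratios without this adjustment were -0.53 and -0.85, with 289 in auxin and 520 in ethanol in the right domain. In prde-1 against wild type (low salt) they were -0.57 and -0.97. Nearest upstream nucleosomes were found for 14178 of 14714 piRNA genes of IV, 9472 of them distinct, with medians of 302 in auxin and 354 in ethanol. Their median change was -0.26 (quartiles -1.16 and 0.56), and -0.33 after centring on GC content. Of these nucleosomes, 26.97% were at least 2-fold lower and 17.0% higher, where 31.0% and 24.9% of all nucleosomes were. Shares depend on the level: of all nucleosomes with a mean of 265 to 372 over both libraries, the range that holds these medians, 19.1% were at least 2-fold lower and 22.1% higher.

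The piRNA genes with the largest changes that kept their direction at high salt were listed at 0 in 1 library, so that no fold is given. The 3 largest falls, 21ur-11533, 21ur-12175 and 21ur-13912, share 1 nucleosome (chromosome IV, centre at 16116673). It was at 0 in auxin and 1436 in ethanol, and at 0 in auxin and 248 in ethanol at high salt. Its dyad was listed at 16116648 in auxin and at 16116698 in ethanol. The ethanol summit was thus at the last base of 21ur-11533 and not upstream of that gene. The rises were at 21ur-15295 (832 in auxin, 0 in ethanol, 1091 against 866 at high salt), 21ur-3835 (705 in auxin, 0 in ethanol, 425 against 411 at high salt) and 21ur-4411 (686 in auxin, 0 in ethanol, 216 against 68.8 at high salt). The mature piRNA of each is shown as DNA, 5′ to 3′ (ce11), with the 5′ T in capitals, the base that is a U in the RNA.
21ur-11533, chrIV:16116678-16116698, plus strand: Tgttgtatcttggattctatc
21ur-15295, chrIV:8612532-8612552, plus strand: Tagttttcactctcctttgaa
21ur-3835, chrIV:5138559-5138579, minus strand: Ttcatccttttttccagttaa
21ur-4411, chrIV:14647014-14647034, minus strand: Tggtaatgatatttgaacaat
The letters TGTTTCA, the core of the upstream motif of clustered piRNA genes, were searched for in the 70 bp before each gene on the strand of the gene alone. They were found for 7146 of 14714 piRNA genes of IV (48.6%) and for 434 of 19973 protein-coding genes (2.17%), and in none of the 6 genes above.

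By the counts of distances between dyads, nucleosome arrays were less regular in auxin. Distances between all dyads with an occupancy of at least 50 were counted (346879 dyads in auxin, 374543 in ethanol) and smoothed. In ethanol the counts had peaks at 206, 372, 548, 735 and 894 bp, and in auxin at 210, 410, 562 and 775 bp. The value of 895 bp taken as the next auxin peak was the near edge of its search window and not a maximum. The first peak exceeded the trough after it by 1.34 times in auxin and 1.42 times in ethanol. The second did so by 1.04 times in auxin and 1.11 times in ethanol, and the third by 1.02 times in auxin and 1.07 times in ethanol. Between 300 and 1000 bp the SD of the wave was 1.41% of the mean count in auxin and 2.60% in ethanol. At high salt it was 2.01% in auxin and 2.39% in ethanol, and at low salt 2.44% in prde-1 and 3.85% in wild type. The lower regularity in auxin at low salt was present on X (1.56% in auxin, 2.42% in ethanol), on autosome arms (1.58% and 2.60%) and in autosome centres (1.33% and 2.76%). Inside protein-coding genes it was 1.45% in auxin and 2.34% in ethanol, and outside them 1.67% in auxin and 3.05% in ethanol. With only the nucleosomes whose dyads differed between the libraries, a setting chosen after seeing the data, the gap narrowed to 2.14% in auxin and 2.63% in ethanol, and on X the order turned, with 2.52% in auxin and 1.98% in ethanol.

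**Figure D5:**
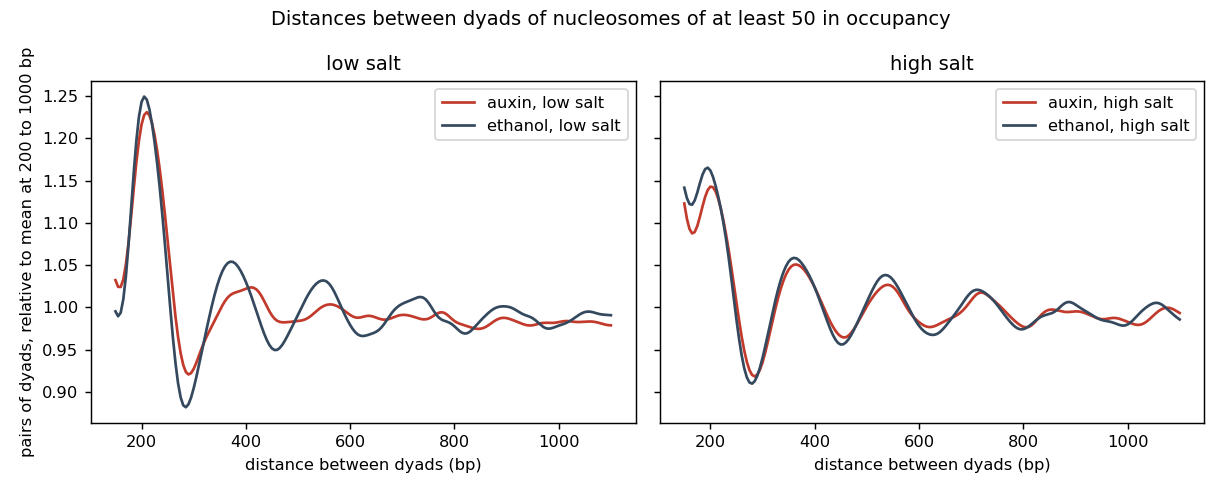
Number of pairs of dyads by distance (bp), smoothed and divided by the mean at 200 to 1000 bp, with low salt on the left and high salt on the right, for auxin (red) and ethanol (dark blue). At low salt the peaks after the first are nearly flat in auxin (second peak 1.04 times its trough) and plain in ethanol (1.11 times), and at high salt the lines run together.

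The repeat length, the slope through the first 5 peaks, was 173.5 bp in auxin (SE of the line 7.94) and 173.9 bp in ethanol (SE 2.37), a difference of -0.40 with an SE of 8.28. The SE is that of the straight line and not of replicates. The auxin line had the window edge at 895 bp as its last point, so a difference as small as -0.40 rests on that point. The first 3 peaks alone, which leave it out, gave 176 bp in auxin (SE 13.9) and 171 bp in ethanol (SE 2.89). Their difference was 5 bp. With dyads of at least 200 the last auxin peak lay at 1008 bp. The repeat length was then 195.7 bp in auxin and 172.2 bp in ethanol. The later peaks in auxin were too shallow to place, and the difference rested on the dyads used: it was 23.5 bp with dyads of at least 200 and 21.6 bp with nucleosomes whose dyads differed between the libraries. Neighbouring nucleosomes of at least 50 in both libraries, with differing dyads and under 300 bp apart, formed 95801 pairs. They lay at a median of 191 bp in auxin and 192 bp in ethanol, and about as many pairs were wider in auxin (49.3%) as narrower (49.7%). The SD of these distances was 47.4 bp in auxin and 47.2 bp in ethanol, so the lower regularity was not seen in them.

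Positions differed between the libraries by a median of 10 bp, but in 33.6% of nucleosomes both libraries listed the same base, 181841 nucleosomes, where a distance of 1 bp was listed for 9341. Where positions differed, the median was 27 bp (quartiles 11 and 49), against 30 bp at high salt and 24 bp in prde-1 against wild type. For +1 nucleosomes, the first within 200 bp downstream of a 5′ end, 8333 genes had at least 50 in both libraries. Their dyads moved into the gene in 3909, towards the 5′ end in 3971 and not at all in 453, with a median of 0 bp (quartiles -24 and 23). At high salt the quartiles were -26 and 24, and in prde-1 against wild type -19 and 20. +1 nucleosomes had a median occupancy of 104 in auxin and 133 in ethanol, a median change of -0.23, and after centring on GC content of 0. Single +1 nucleosomes of at least 200 in both libraries and the same direction at high salt moved by up to 98 bp into the gene at fbxa-167, an F-box gene (19 bp at high salt), 95 bp at the Argonaute gene sago-1 (56 bp at high salt) and 92 bp at F28C10.3 (12 bp at high salt). The largest moves towards the 5′ end were -99 bp at gap-2, a Ras GTPase-activating protein gene (-76 bp at high salt), -98 bp at nhr-12 (-24 bp) and -97 bp at F43H9.4 (-29 bp).

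Fuzziness, the caller's score for the spread of fragment centres within a nucleosome, was little changed. Over 256777 nucleosomes of at least 50 in both libraries its median was 36.3 in auxin and 35.9 in ethanol, with a median change of 0.37 (quartiles -9.35 and 10.1). It was higher in auxin on X, by a median of 1.23 (36.9 in auxin, 35.1 in ethanol), against 0.21 on autosomes, and at high salt the medians were 1.92 on X and 0.37 on autosomes. In coding exons the median change was -0.33. A score of 58.2 was repeated in 7.29% of nucleosomes in auxin and 3.94% in ethanol.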

How the data were processed

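H3 native ChIP-seq of isolated germ nuclei, 2 H3 libraries and 2 inputs each for auxin and ethanol, was read from the table of nucleosome positions. Per the labels and the study's methods, reads were aligned with Bowtie2 to ce11, fragments of nucleosome size were kept, replicates were merged after downsampling, and DANPOS3 called nucleosomes with input subtracted. The methods describe a GC correction, which the names of the prde-1 and wild type tables mark and those of the ISW-1 tables do not, and whether the ISW-1 libraries were corrected is not given in the sources used here. The deposited summit values are a coverage signal, the deposited fuzziness is a score, and dyad positions are in bp. The authors' fold changes, p-values, FDR and point-wise values, which compare auxin with ethanol, were not used. Read totals are not in the table, so the depth of each library is unknown and no counting interval is given. The Drosophila spike-in chromatin was not used here.

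Python 3 with numpy and pandas computed log2((auxin + 1)/(ethanol + 1)) per nucleosome and, from mean occupancy over nucleosomes centred in it, per gene (Ensembl 115, WBcel235, the same assembly as ce11). The longest listed position on each chromosome lay within the reference length. Gene lists needed 3 nucleosomes and a mean of 50. Named genes needed 10 nucleosomes, a mean of 100 and the same sign at high salt, and were the 8 largest rises and falls. For +1 nucleosomes (200 in both libraries) and piRNA genes of IV (mean of 200) the 3 largest in each direction were named, and all members of the lists for ISWI complexes and USTC. GC expectation was the ethanol value times the ratio of mean occupancies over nucleosomes of like GC content, and centred changes had the median change of such nucleosomes subtracted. Repeat length, +1 shift and median change were tested on simulated data. Of 31 major sperm protein genes none passed the limits, and ino-80 and tofu-3 had no match in the annotation. The members and lists were chosen with earlier results of these data known. The treatment field names high salt for all auxin samples and low salt for all ethanol samples, against titles and descriptions, which were followed.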

Additional observations from a re-analysis of the deposited data

Results flagged for a closer look

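Several gene groups had median changes of opposite sign at low and high salt, in other libraries with the same treatment. The differences were not tested, since each group was 1 merged library. At low salt the median change was -0.70 for cuticle collagen genes (0.16 at high salt), -0.18 for C-type lectin genes (0.32), -0.41 for snRNA genes (0.13), -0.37 for miRNA genes (0.43), -0.15 for pseudogenes (0.27) and -0.15 for antisense RNA genes (0.12). The median of all protein-coding genes moved the same way, -0.15 at low salt and 0.11 at high salt, so the median of all genes changed sign as well. Ribosomal protein, germ granule and meiotic genes did not show it, with medians of -1.46 (-1.73 at high salt), -0.97 (-1.01) and -0.53 (-0.73).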

How the results depend on the processing

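No paired analysis was possible because the replicates of each group were merged before nucleosomes were called, and for the same reason no replicate could be left out. The median occupancy change of -0.09 became -7.5e-05 with at least 50 in both libraries, -0.028 without nucleosomes at 0 in either library and 0 with changes centred on GC content (this and the other GC settings, the settings on differing dyads and all settings for genes were chosen after seeing the data). With at least 200 in the higher library, 15.01% of nucleosomes were 2-fold lower and 13.4% higher. The repeat length difference was 5 bp with the first 3 peaks, 23.5 bp with dyads of at least 200 and 21.6 bp with only differing dyads. The median dyad distance was 22 bp with at least 50 and 18 bp with at least 200 in both libraries, and 27 bp with only differing positions. The fuzziness change was 1.29 over all nucleosomes and 0.23 with at least 200 in both. The +1 shift was -1 bp with only differing dyads. X minus autosomes was 0.13 with a pseudocount of 10, 0.17 with at least 50 in both and 0.19 centred on GC. Arms minus centres was -0.10 with at least 50 in both and -0.16 centred on GC. The GC difference was -0.68 with a pseudocount of 10 and -0.32 with at least 50 in both. Among genes with at least 10 nucleosomes 6.02% were 2-fold lower and 1.65% higher. Set against the GC expectation, 3 family medians near 0 turned, srh genes to 0.089, F-box genes to 0.025 and cytochromes P450 to 0.16, and with at least 10 nucleosomes srh genes gave 0.028 and cytochromes P450 0.0067. The cause of these shifts was not tested.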

Other observations

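Genes were also ordered by their H3 occupancy in wild type, a library not used in the ISW-1 comparison. In the lowest decile of 1788 genes (median 56.2 in wild type) the median was 96.8 in auxin and 101 in ethanol, a median change of -0.06, and in the highest decile (median 314 in wild type) 228 in auxin and 292 in ethanol, a change of -0.33. On autosomes the highest decile had a median change of -0.33 over 1772 genes. On X only 16 genes fell in it, with a median of -0.25, and the 6th decile on X, with 306 genes, had a median of 0.08. The lowest decile held the largest share of genes at least 2-fold lower, 16.8% against 13.9% in the highest.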
